A study of Mus musculus with 46 samples.

Results

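The collagen genes of the mouse were followed through 46 bulk RNA libraries. Members were the gene symbols made of Col, a number, a and a second number. That gave 42 of the 46264 symbols of the deposited table, and 2 genes of the family are not analysed here. By the build of their proteins, 11 members are fibrillar, 8 belong to basement membranes, 9 are fibril-associated collagens with interrupted triple helices (FACIT) and 14 are grouped as other. The libraries come from a mouse model of mucous membrane pemphigoid, in which autoantibodies against laminin 332 detach epithelium from its basement membrane. Mice were given intravenous immunoglobulin (IVIG), which is pooled antibody, or phosphate-buffered saline (PBS). The labels give 3 skin libraries with IVIG and 3 with PBS, 5 and 5 of blood, 5 and 5 of neutrophils, and 3 and 5 of monocytes, and the cells are described as bone marrow derived. A further experiment is labelled Ics, with 4 libraries each unstimulated at 0 h and stimulated for 3 h and 6 h. The abbreviation is not explained in the labels, and the stimulated cells are not named there. Titles outside Ics carry a series (S2, S3 or S5) and a number, and Ics titles carry m1 to m4. What the series and numbers stand for is not explained. All skin-labelled libraries are of series S5, and the mix of series differs between IVIG and PBS in neutrophils and monocytes. Strain, age, sex and dose are not given in the sources used here. Nothing says outright which libraries come from separate animals, so p-values measure only the spread between these libraries, which may be technical.

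Collagens are secreted proteins of 3 chains wound into a triple helix. Fibrillar collagens, of which types I and III dominate the dermis, assemble into the fibres that give skin its strength. Type IV collagen forms the sheet of the basement membrane, and FACIT members sit on the surface of fibrils. Fibroblasts make most dermal collagen. Bone marrow holds stromal and bone-forming cells with collagen of their own, and blood cells are not known as a main source.

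The library totals lay between 18965431 and 43176537 estimated counts. Of the 34 libraries labelled as a tissue or cell type, 25 carried the markers of their label and 9 did not. By their markers, 6 libraries formed a skin class (Krt5 plus Krt14 at 309.9 to 1575 CPM against at most 0.427 in the other 40), 10 a blood class (haemoglobin genes over 10% of counts), 10 a neutrophil class (S100a8 plus S100a9 over 10000 CPM) and 8 a monocyte class. The skin class holds 4 libraries labelled skin and 2 labelled blood. The libraries labelled skin PBS 1 and skin IVIG 3 lie in the blood class, as do neutrophil PBS 1 and neutrophil IVIG 5. The libraries labelled monocyte PBS 1 and blood PBS 1 lie in the neutrophil class, and blood IVIG 2 in the monocyte class. Levels are therefore described by marker class, and IVIG directions hold only for the names as deposited. CPM, counts divided by the library total and multiplied by 1e+06, are computed from the estimated counts, and levels are compared between genes per kilobase of the longest transcript (CPM per kb). A share or order given in CPM describes how the counts of a library are spread over genes, and is no comparison of transcript levels. In bulk RNA, fewer cells of a type and less RNA per cell cannot be told apart.

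In the skin class the 42 collagen genes together held 13017 to 34171 CPM, with a median of 21262 CPM over the 6 libraries. Every library outside it was at or below 285 CPM. Fibrillar members made up 89.9% to 94.0% of the collagen counts of a skin-class library, basement membrane members 1.46% to 4.44%, FACIT members 0.772% to 1.40% and the others 2.92% to 4.98%. Per kilobase the fibrillar share was 90.2% to 93.9%. Col1a1, Col1a2 and Col3a1 alone held 85.3% to 91.2% of the collagen counts, and their medians of 1210.3, 1114 and 1093 CPM per kb stood against at most 58.3 CPM per kb (Col6a1) in any other member. Of the 42 members, 18 had a median of at least 10 CPM in the skin class, 15 lay between 1 and 10 CPM and 9 lay below 1 CPM. Next to that limit, Col12a1 had a median of 13.4 CPM and Col6a6 one of 9.70 CPM. For 26 members the lowest skin-class library was above all 40 other libraries. The classes were drawn on keratins, so these levels are a description without a test.

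**Figure D1:**
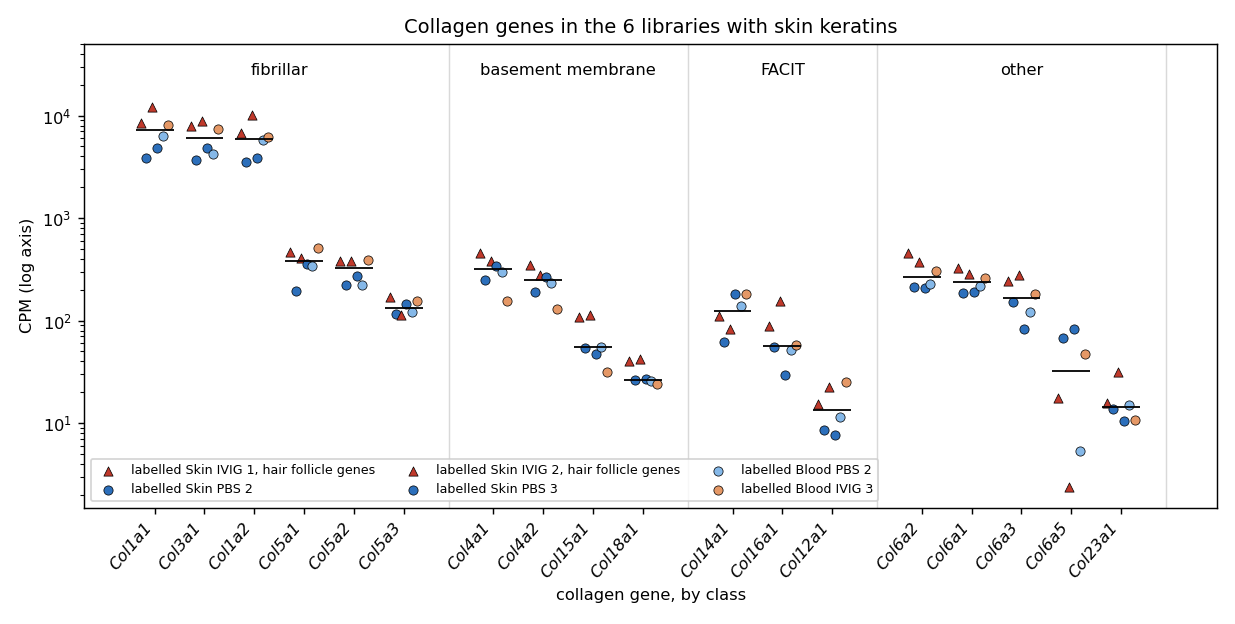
CPM (log axis) of the 18 collagen genes with a median of at least 10 CPM, grouped by class, in the 6 libraries with skin keratins. Points are libraries, coloured by label, triangles mark the 2 libraries with hair follicle keratins, and bars are medians. Col1a1, Col3a1 and Col1a2 hold the most counts, and also stand apart per kilobase, at medians of 1093 CPM per kb or more against at most 58.3.

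Type I collagen is built from the products of Col1a1 and Col1a2, and type III from that of Col3a1. In the order skin IVIG 1, skin PBS 2, skin IVIG 2, skin PBS 3, blood PBS 2 and blood IVIG 3 (the deposited names, kept for every list of 6 values below), Col1a1 (GRCm38 chromosome 11, 94936224 to 94953042) stood at 8471, 3896, 12110.4, 4784, 6259.8 and 8095 CPM. Col1a2 (chromosome 6, 4504814 to 4541544) stood at 6708, 3551, 10112, 3896, 5775 and 6144 CPM. Col3a1 (chromosome 1, 45311538 to 45349706) stood at 7843, 3719, 8940.0, 4803, 4212 and 7355 CPM. All 3 were highest in the library labelled skin IVIG 2 and lowest in that labelled skin PBS 2. Per kilobase the ratio of Col1a1 to Col1a2 was 0.978 to 1.19 over the 6 libraries, and that of Col3a1 to Col1a1 was 0.717 to 1.07.

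Type V collagen nucleates and limits the type I fibril. Col5a1 stood at 468, 194, 406, 355, 340.3 and 508 CPM, Col5a2 at 383, 220.4, 378, 271, 224 and 391 CPM, and Col5a3 at 169, 116, 113, 146, 122 and 157 CPM. Of the 18 members, Col5a3 varied least between libraries, with the highest 1.5 times the lowest. Col5a1 and Col5a2 were close per kilobase, at medians of 45.2 and 49 CPM per kb. The remaining fibrillar members were low. Col27a1 ranged from 6.57 to 12.8 CPM, Col11a2 from 0.514 to 2.25 CPM, Col24a1 from 0.0670 to 0.962 CPM and Col2a1, the main chain of cartilage, from 0 to 0.101 CPM. Col11a1 stood at 10.2 and 4.79 CPM in skin IVIG 1 and skin IVIG 2 and at no more than 1.12 CPM in the other 4.

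Among basement membrane members, Col4a1 and Col4a2 code the chains found in nearly every basement membrane. They lie head to head on chromosome 8 (11198423 to 11312826 and 11312805 to 11449287) and share 22 bases of exon. Col4a1 stood at 459, 249.8, 382, 343, 295 and 157 CPM and Col4a2 at 350.4, 191, 278, 268, 230.2 and 129 CPM. Their order over the libraries was the same, and their ratio per kilobase stayed between 1.19 and 1.34. Both were lowest in the library labelled blood IVIG 3, where the summed endothelial markers (Pecam1, Cdh5, Emcn, Kdr and Tie1) were also lowest, at 170.4 CPM against 255 to 380.1 CPM in the other 5. The part of vessels in this difference was not tested. The restricted type IV chains were low: Col4a4 at 4.22 to 24.2 CPM, Col4a5 at 3.16 to 7.72 CPM, Col4a6 at 1.38 to 4.83 CPM and Col4a3 at 0.944 to 5.33 CPM. Col15a1 and Col18a1 code the basement membrane proteoglycan collagens XV and XVIII. Col15a1 stood at 109, 54.5, 114, 47, 55.0 and 31.3 CPM and Col18a1 at 40.0, 26.6, 42.1, 26.7, 25.6 and 24.0 CPM, with skin IVIG 1 and skin IVIG 2 above the other 4 in both.

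Of the FACIT members, 3 passed 10 CPM. Col14a1, which binds fibrils through decorin, stood at 111, 61.4, 82.6, 182, 138 and 183 CPM. Col16a1 stood at 88.1, 54.9, 156, 29.4, 52 and 58.3 CPM, and Col12a1 at 15.2, 8.48, 22.6, 7.69, 11.6 and 25.0 CPM. Their orders differed: Col14a1 was high in skin PBS 3 and blood IVIG 3, and Col16a1 in skin IVIG 2. The other FACIT members were at or under 2.29 CPM: Col20a1 at 0.661 to 2.29 CPM, Col9a3 at 0.776 to 1.44 CPM, Col22a1 at 0 to 0.858 CPM, Col19a1 at 0 to 0.156 CPM, Col9a2 at 0 to 0.101 CPM and Col9a1 at 0 to 0.0520 CPM.

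Type VI collagen forms beaded microfibrils around cells. Col6a1 stood at 327, 185, 286, 191, 215 and 263 CPM, Col6a2 at 461, 213, 377, 210.0, 228 and 301 CPM, and Col6a3 at 245, 151, 278, 83.7, 121 and 183 CPM. Per kilobase Col6a1 was 0.805 to 1.07 times Col6a2, while Col6a3 was 0.184 to 0.339 times Col6a2. Col6a5, an alternative to the Col6a3 chain, varied most among the 18 members, at 17.8, 68.1, 2.40, 83.0, 5.35 and 47.3 CPM, so that the highest library was 34.6 times the lowest. Col6a6 ranged from 4.93 to 18.8 CPM and Col6a4 from 0.182 to 1.16 CPM. The transmembrane collagen Col23a1 stood at 15.6, 13.6, 31.4, 10.5, 14.9 and 10.6 CPM. Col8a1, Col8a2 and Col28a1 ranged over 3.12 to 16.5, 1.98 to 6.30 and 1.21 to 4.66 CPM. Col26a1 ranged from 0.134 to 2.70 CPM, Col13a1 from 0.252 to 1.30 CPM, Col25a1 from 0.0601 to 0.168 CPM and Col10a1, known from hypertrophic cartilage, from 0 to 0.101 CPM.

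The skin-class libraries differed in what else they held. The inner root sheath keratin gene Krt71 stood at 143 CPM in skin IVIG 1 and 136 CPM in skin IVIG 2, and at no more than 0.220 CPM in the other 4. Both libraries lay above the other 4 for 12 of the 18 members with a median of at least 10 CPM, among them Col1a1, Col3a1, Col4a2, Col6a3 and Col15a1. Over all 10050 genes with such a median this held for 11.2%, and both lay below the other 4 for 2.97% of these genes and for 0 of the 18 members. Of all 42 members, whatever their median, both lay above for 16 and below for 0. The share over all genes whatever their median was not taken, so this count has nothing to be set against. The 16 include Col10a1, at 3 and 1 counts against at most 1, and Col26a1, at 2.05 CPM or more against at most 2.01 CPM. Many members moved together over these libraries, so they are not separate observations. Krt71 split the libraries, and no collagen was used for that. Skin IVIG 1 and skin IVIG 2 are also the only IVIG libraries among the skin-labelled libraries of the class. Among the skin-labelled libraries, treatment and hair follicle content therefore cannot be told apart. The library labelled blood IVIG 3 is one of the other 4, and its label and markers disagree. Skeletal muscle markers summed to 3173, 16737 and 1981 CPM in skin PBS 3, blood PBS 2 and blood IVIG 3 and to 19.9 to 274 CPM in the other 3. Fibroblast markers summed to 3569 to 6028 CPM. Their part in the collagen levels was not tested.

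Genes that serve collagen were measured beside it, from lists of 20 modifying and folding genes, 12 of propeptide removal and cross-linking, 12 fibril-associated proteoglycans and glycoproteins, 12 of degradation, 9 receptors and 11 of TGF-beta signalling. The 4 genes with the most counts by median in the skin class are given for each list, without scaling for length. Of the first list they were P4hb at 525.6 CPM, the collagen chaperone Serpinh1 at 401 CPM, Ppib at 367 CPM and Colgalt1 at 158 CPM. Of the second, the procollagen proteinase Adamts2 stood at 233 CPM, Loxl1 at 196 CPM, Bmp1 at 128 CPM and Pcolce2 at 112 CPM. Of the third, decorin (Dcn) stood at 2835 CPM, Sparc at 2569 CPM, Dpt at 1047 CPM and Fn1 at 497 CPM. Of degradation genes Ctsk stood at 1673 CPM, Timp2 at 1191 CPM, Mmp14 at 731 CPM and Mmp2 at 423 CPM. Of receptors Itgb1 stood at 300.0 CPM, Ddr2 at 82.6 CPM, Lair1 at 44.2 CPM and Ddr1 at 34.9 CPM. Of TGF-beta signalling Tgfbr2 stood at 686 CPM, Tgfb1 at 87.6 CPM, Tgfbr1 at 45.7 CPM and Smad4 at 37.5 CPM.

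Genes that are not collagens were ranked by their likeness to Col1a1 over the 6 libraries, by Pearson's r of log2(CPM + 1). The ranking covered 10030 genes with a median of at least 10 CPM. Collagens were left out of it, and by the same measure Col1a2 stood at r = 0.984 and Col3a1 at r = 0.923. The collagen chaperone Serpinh1 was among the first 10 with r = 0.976, as was the prolyl isomerase Fkbp10 with r = 0.960. The first was the zinc transporter Slc39a7 with r = 0.983, and the others were Ikbip, Snhg18, Rcn1, Gpx7, Arfgap3, the proteoglycan gene Aspn and Ipmk, down to r = 0.957. The points share 6 libraries that differ in hair follicle and muscle content, and r is given as a description.

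Outside the skin class, 27 members reached 1 CPM in some library. The neutrophil class held 93.1 to 285 CPM of collagen in all, the monocyte class 54.3 to 193 CPM, the Ics libraries 84.2 to 129 CPM and the blood class 0.720 to 7.99 CPM. Haemoglobin genes fill most of the blood class, and without them in the total its collagen came to 42 to 80.7 CPM. A library of the blood class held 25 to 253 collagen counts in all, against at least 1837 in any other library.

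**Figure D2:**
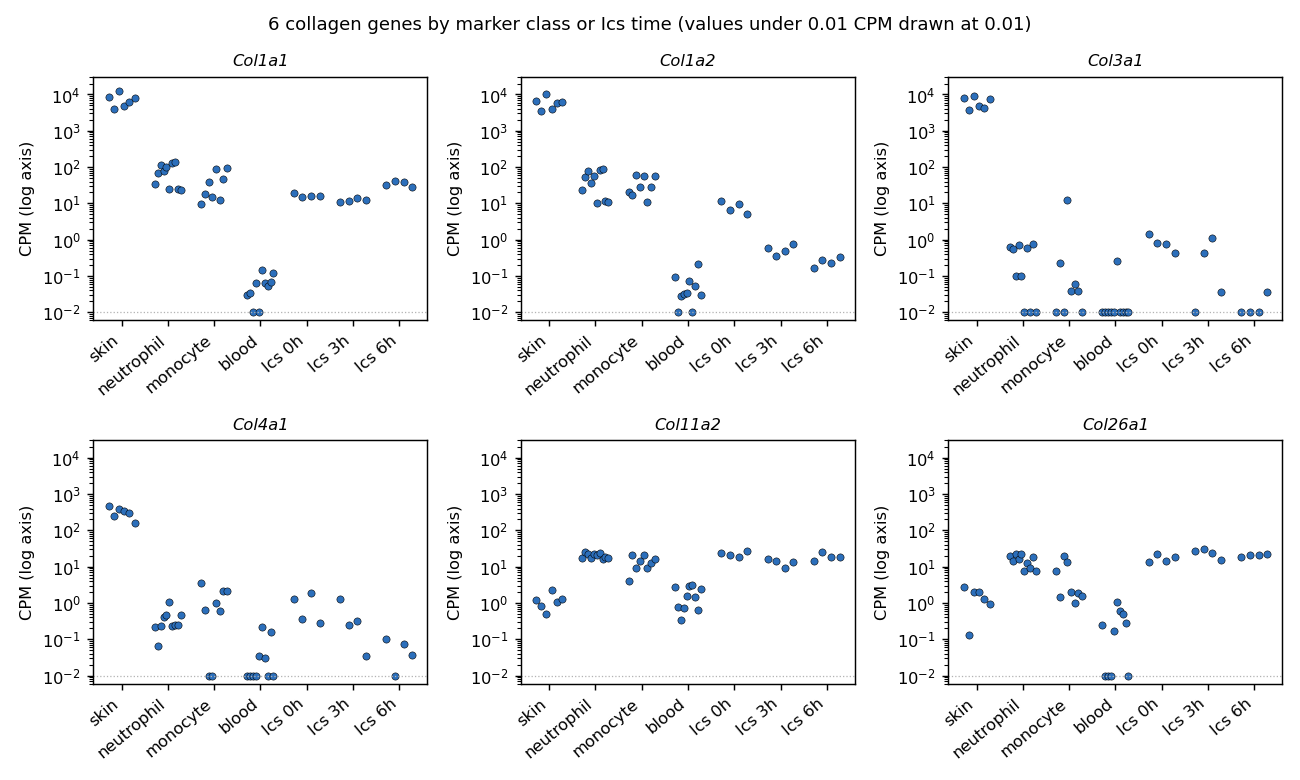
CPM (log axis) of 6 collagen genes in each library, by marker class or Ics time. Points are libraries, and values under 0.01 CPM are drawn at 0.01. Col1a1, Col1a2, Col3a1 and Col4a1 are highest in skin, while Col11a2 and Col26a1 are higher in the neutrophil class and the Ics libraries than in skin.

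In the neutrophil class both type I chains were measured, with little of type III. Col1a1 ranged from 23.1 to 137 CPM with a median of 72.4, and Col1a2 from 10.3 to 86.6 CPM with a median of 45, while Col3a1 was at most 0.766 CPM. Per kilobase Col1a1 was 1.13 to 2.25 times Col1a2 there. Col11a2, a type XI fibril chain, ranged from 16.5 to 25.1 CPM, Col26a1 from 7.72 to 22.2 CPM and Col5a1 from 4.96 to 14.9 CPM. Col20a1 ranged from 3.54 to 7.95 CPM, Col27a1 from 3.12 to 6.47 CPM, Col4a3 from 1.39 to 9.20 CPM, Col9a3 from 0.846 to 2.54 CPM and Col4a2 from 0.187 to 2.88 CPM. For Col11a2 and Col26a1 the lowest of the 10 libraries was above the highest of the 6 skin-class libraries (2.25 and 2.70 CPM). Fibroblast markers summed to 0.541 to 2.28 CPM in the class and osteoblast markers to 6.22 to 15.4 CPM, and the list of bone marrow stroma to 17.5 to 32.5 CPM. The bone gene Dmp1 alone stood at 2.67 CPM or more in each library of the class. The 5 chondrocyte markers summed to 0.217 to 4.46 CPM, of which Comp held up to 4.46 CPM, while Acan and Matn3 were at 0 throughout the class. The part of these cells in the collagen values was not tested. Exons of Col4a3 share 563 bases with C430014B12Rik on the other strand and those of Col9a3 share 234 with Tcfl5. The described library preparation does not mark strand, so these values are uncertain, as are those of Col5a1, which shares 113 bases with Gm13372.

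Of the neutrophil class, further members passed 1 CPM in some library only. Col2a1 reached 1.35 CPM, Col5a2 1.26 CPM, Col5a3 1.37 CPM, Col11a1 1.40 CPM, Col12a1 1.91 CPM, Col18a1 1.77 CPM, Col22a1 1.72 CPM, Col23a1 1.41 CPM, Col25a1 1.33 CPM and Col4a1 1.08 CPM. Each of these 10 had a class median below 1 CPM.

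The monocyte class varied more from library to library. Col1a1 ranged from 9.60 to 95.9 CPM and Col1a2 from 10.9 to 60.1 CPM, and Col1a1 was 0.428 to 1.5 times Col1a2 per kilobase. Col3a1 stood at 12.6 CPM in the library labelled monocyte PBS 3 and at no more than 0.233 CPM in the other 7. Col4a3 ranged from 0.234 to 13.7 CPM and Col26a1 from 0.972 to 20.2 CPM, both highest in monocyte IVIG 2, where Col6a2 stood at 5.69 CPM and fibroblast markers summed to 13.1 CPM against 0.388 to 2.77 CPM in the other 7. No library of the class had more than 1 of the 6 fibroblast markers at 1 CPM or more, so the 13.1 CPM rests mainly on 1 gene. Bone marrow stroma markers summed to 94.0 CPM in monocyte IVIG 2, 64.3 CPM in monocyte PBS 2, 55.0 CPM in monocyte PBS 3 and 10.9 to 37.9 CPM in the other 5. Of these markers Cxcl12 and Lepr were highest in monocyte PBS 3, at 44.4 and 6.55 CPM, where Col3a1 was highest too. The part of stromal RNA in these values was not tested. Col11a2 ranged from 4.05 to 20.9 CPM, Col5a1 from 0 to 8.18 CPM, Col4a2 from 0 to 5.04 CPM, Col27a1 from 0 to 4.30 CPM, Col20a1 from 0 to 3.62 CPM and Col4a1 from 0 to 3.60 CPM. Col9a3, Col15a1, Col16a1, Col24a1, Col2a1, Col18a1, Col5a3 and Col6a1 reached 2.94, 2.87, 2.85, 1.80, 1.28, 1.27, 1.21 and 1.13 CPM in their highest libraries.

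In the blood class 5 members reached 1 CPM. Col11a2 ranged from 0.346 to 3.04 CPM, and Col23a1, Col27a1, Col26a1 and Col18a1 reached 1.51, 1.12, 1.08 and 1.04 CPM. Col1a1 was at most 0.144 CPM and Col1a2 at most 0.208 CPM.

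In the Ics experiment the question was which collagen genes differed after stimulation. The summed level was 104 to 116 CPM at 0 h, 84.2 to 106 CPM at 3 h and 108 to 129 CPM at 6 h, so that each later time overlapped with 0 h. Its make-up differed. Basement membrane members held 5.98% to 7.55% of the collagen counts at 0 h, 23.3% to 27.2% at 3 h and 11.4% to 17.6% at 6 h. Fibrillar members held 60.4% to 72.1%, 41.6% to 48.9% and 55.9% to 64.1%. Per kilobase the basement membrane share was 4.69% to 6.15%, 18.1% to 21.8% and 9.42% to 14.8%. The neutrophil markers S100a8, S100a9, Ly6g, Mmp8, Ltf and Camp summed to 64069 to 71816 CPM at 0 h, 42940.4 to 52059 CPM at 3 h and 39117 to 43904 CPM at 6 h, so that both later times lay below 0 h.

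**Figure D3:**
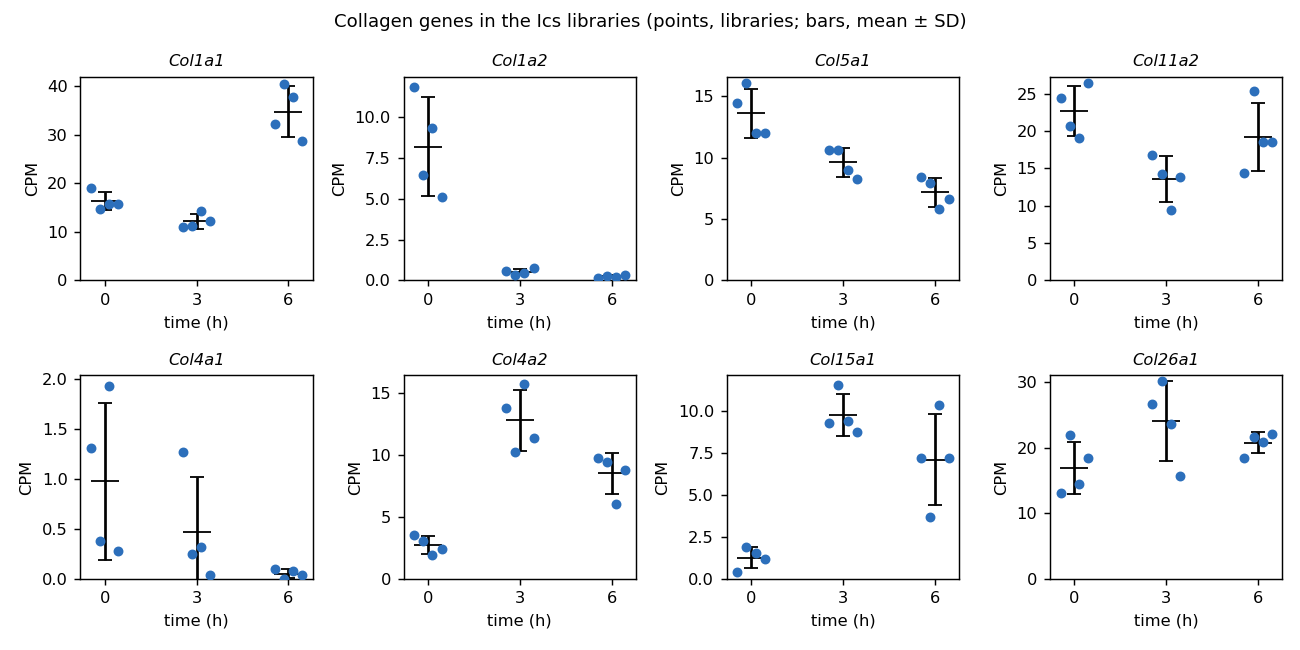
CPM of 8 collagen genes in the Ics libraries against time in hours. Points are the 4 libraries of each time, and bars are mean ± SD. Col1a2 is lower at 3 h and 6 h than at 0 h, Col1a1 is highest at 6 h, and Col4a2 and Col15a1 are highest at 3 h by their means.

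Changes were tested with the quasi-likelihood F test of edgeR over all 14996 genes that passed a filter on low counts, with Benjamini-Hochberg adjusted p under 0.05 called a rise or a fall. Of the 42 members 17 passed the filter. The changes are log2 values ± SE from TMM-scaled counts, with n = 4 libraries at each time. At 3 h, 4 members rose and 7 fell, where 54.4% of all genes tested were called (26.9% risen and 27.5% fallen). At 6 h against 0 h, 5 rose and 7 fell, where 60.0% were called (29.6% risen and 30.4% fallen). Both comparisons share the 0 h libraries. The members' median log2 change was -0.37 at 3 h and -0.27 at 6 h, beside -0.06 over all genes at each time. In TMM-scaled CPM, groups did not overlap for 7 of the 17 at 3 h (49.7% of all genes) and for 11 at 6 h (55.3%). CPM of single libraries are printed without TMM scaling, so they need not follow the log2 changes. Between 0 h and 3 h, Col1a1, Col5a1 and Col11a2, among others, did not overlap in the printed CPM but did in TMM-scaled CPM. Which members pass at 3 h thus depends in part on the scaling. Called shares of 64.7% and 70.6% of so few members lie near those of all genes, so what follows concerns single members.

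The 2 chains of type I collagen moved apart. Col1a2 stood at 11.9, 6.47, 9.34 and 5.12 CPM in the 4 libraries at 0 h, at 0.599, 0.357, 0.473 and 0.753 CPM at 3 h, and at 0.169, 0.283, 0.221 and 0.325 CPM at 6 h. The 3 times did not overlap. It fell by 3.65 ± 0.295 at 3 h (adjusted p = 8.58e-08) and by 4.85 ± 0.326 at 6 h (adjusted p = 1.12e-08). Col1a1 stood at 19.0, 14.7, 15.7 and 15.8 CPM at 0 h, at 11.0, 11.3, 14.4 and 12.2 CPM at 3 h, and at 32.2, 40.4, 37.7 and 28.8 CPM at 6 h. Every library at 6 h was above every library at 0 h and 3 h. Col1a1 did not pass at 3 h (-0.17 ± 0.127, adjusted p = 0.270) and rose by 1.25 ± 0.125 at 6 h (adjusted p = 7.64e-07). Per kilobase Col1a1 was 1.44 to 2.79 times Col1a2 at 0 h, 14.6 to 28.5 times at 3 h and 80.0 to 171 times at 6 h. No other gene shares exon bases with either in GENCODE vM21.

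**Figure D4:**
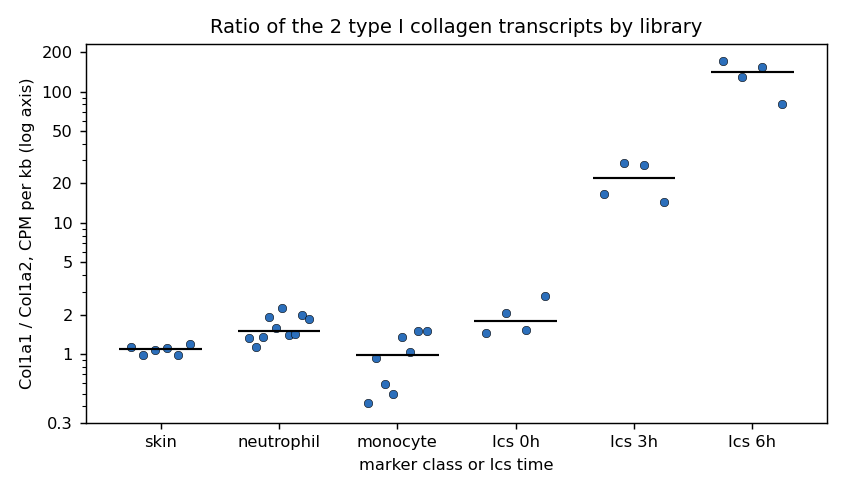
Ratio of Col1a1 to Col1a2 in CPM per kilobase (log axis) in each library, by marker class or Ics time, with bars at the median. The blood class is left out for its low counts. Skin lies between 0.978 and 1.19, and the Ics libraries rise from 1.44 to 2.79 at 0 h to 80.0 to 171 at 6 h.

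The collagen chaperone Serpinh1 stood at 0.247 to 0.521 CPM at 0 h and at no more than 0.108 CPM at 3 h and 6 h. Fibroblast markers (Pdgfra, Pdgfrb, Dpt, Lum, Dcn and Fbln1) summed to 1.09 to 1.91 CPM at 0 h, 0.355 to 0.682 CPM at 3 h and 0.106 to 0.305 CPM at 6 h. Osteoblast markers (Bglap, Bglap2, Sp7, Ibsp, Dmp1 and Alpl) summed to 10.8 to 12.6, 5.42 to 7.31 and 6.85 to 8.61 CPM. Platelet markers summed to 136 to 144, 23.9 to 32.2 and 40.6 to 52.3 CPM, and red cell markers to 111 to 283, 16.2 to 47.2 and 7.90 to 18.5 CPM. The bone marrow stroma list went from 19.5 to 25.3 CPM at 0 h to 25.1 to 40.5 CPM at 3 h and 12.0 to 22.6 CPM at 6 h. Within that list Cxcl12 fell by 3.57 on the log2 scale at 3 h and by 4.8 at 6 h, while Vcam1 rose by 1.21 at 3 h. The fibroblast, osteoblast, neutrophil, platelet and red cell sums were thus lower at both later times without overlap, and the stroma sum was not. Of these 6 fibroblast markers only Dcn passed the count filter. Most of the platelet sum at 0 h was Itgb3, at a mean of 105 TMM-scaled CPM. Ppbp, Pf4, Gp9 and Itgb3 fell at both times, while Itga2b did not pass (0.31 ± 0.273 and 0.52 ± 0.271). Dmp1, at a mean of 9.36 TMM-scaled CPM at 0 h, made up most of the osteoblast sum. It fell at 3 h (-0.49 ± 0.123) and did not pass at 6 h (-0.23 ± 0.122), while Ibsp fell at both times. The part of such cells in the collagen changes was not tested.

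Sequences before the RefSeq starts of Col1a2 and Col15a1 are shown because these members moved in opposite directions. Each is the stretch from base 248 to base 126 before the RefSeq start in GRCm38.p6, plus strand, and outside every GENCODE exon. GENCODE opens the Col1a2 gene further upstream, so by that annotation the Col1a2 stretch lies inside the gene, between exons, while that of Col15a1 lies before the gene in both. Capitals mark the GC box GGGCGG. The CCAAT box, the TATA box as TATAAA, the AP-1 motif as TGACTCA and the consensus motif of NF-kappaB were searched for as well, all on both strands.
Col1a2, chr6:4505370-4505492: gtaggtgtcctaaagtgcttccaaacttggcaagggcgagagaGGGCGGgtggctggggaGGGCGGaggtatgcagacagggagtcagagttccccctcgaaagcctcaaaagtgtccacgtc
Col15a1, chr4:47207764-47207886: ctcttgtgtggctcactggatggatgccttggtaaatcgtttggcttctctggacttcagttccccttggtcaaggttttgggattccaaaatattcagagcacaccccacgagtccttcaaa
The Col1a2 stretch holds the GC box at 2 places, and the Col15a1 stretch holds none of the 5 motifs. Of 32851 promoters in the RefSeq table, 13.3% hold the GC box in the same window, 16.6% the CCAAT box, 6.13% the TATA box, 2.03% the AP-1 motif and 0.0487% the NF-kappaB motif. A match is a description of letters. The table held 33 of the 42 members.

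The rises at 3 h were in Col15a1, Col9a2, Col4a2 and Col26a1. Col15a1 (chromosome 4, 47208161 to 47313167) stood at 0.424, 1.91, 1.52 and 1.17 CPM at 0 h, at 9.31, 11.6, 9.42 and 8.72 CPM at 3 h, and at 7.19, 3.68, 10.3 and 7.18 CPM at 6 h. Both later times were above all 0 h libraries. It rose by 3.20 ± 0.364 at 3 h (adjusted p = 3.20e-06) and by 2.66 ± 0.363 at 6 h (adjusted p = 1.77e-05). Col4a2 stood at 3.57, 3.07, 1.93 and 2.42 CPM at 0 h, at 13.8, 10.2, 15.7 and 11.3 CPM at 3 h, and at 9.69, 9.42, 6.05 and 8.77 CPM at 6 h. It rose by 2.46 ± 0.200 at 3 h and by 1.78 ± 0.199 at 6 h (adjusted p = 9.34e-08 and 2.39e-06). Its exons share 43 bases with Gm15419 on the other strand.

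Its partner Col4a1 went the other way, at 1.31, 0.374, 1.93 and 0.282 CPM at 0 h, 1.27, 0.25, 0.315 and 0.0359 CPM at 3 h and 0.102, 0, 0.0738 and 0.0361 CPM at 6 h. The change at 3 h was -0.82 ± 0.731 (adjusted p = 0.365), and Col4a1 fell at 6 h (adjusted p = 0.00345). The counts were 106 over the 4 libraries at 0 h and 6 at 6 h, a ratio of 0.0537 per total count (exact 95% interval 0.0193 to 0.121, counting error only). Per kilobase Col4a1 was 0.114 to 0.975 times Col4a2 at 0 h and 0.0196 to 0.0898 times at 3 h, against 1.19 to 1.34 times in the skin class.

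Col9a2, a chain of the FACIT collagen IX known from cartilage, rose from 0 to 0.187 CPM at 0 h to 0.276 to 0.717 CPM at 3 h and 0.881 to 1.23 CPM at 6 h. Its log2 changes were 2.79 ± 0.524 and 3.72 ± 0.496 (adjusted p = 0.000392 and 1.47e-05). It had 9 counts over the 0 h libraries and 118 over those at 6 h. Its partner Col9a3, at 0.707 to 1.09, 0.430 to 1.02 and 0.708 to 1.52 CPM, did not pass at either time (-0.03 ± 0.313 and 0.52 ± 0.303). Col26a1 (chromosome 5, 136741759 to 136883209) stood at 13.1, 21.9, 14.4 and 18.4 CPM at 0 h, at 26.7, 30.1, 23.7 and 15.7 CPM at 3 h and at 18.5, 21.6, 20.9 and 22.2 CPM at 6 h, and the times overlapped. It rose by 0.75 ± 0.187 at 3 h (adjusted p = 0.00344) and by 0.46 ± 0.187 at 6 h (adjusted p = 0.0487). The 6 h rise did not pass without any 1 of 6 libraries: 0 h replicates 1, 3 and 4 (0.34, 0.39 and 0.52) and 6 h replicates 2, 3 and 4 (0.47, 0.44 and 0.43).

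The other falls were smaller or rested on few counts. Col3a1 stood at 1.45, 0.785, 0.781 and 0.443 CPM at 0 h, at 0, 0.428, 1.14 and 0.0359 CPM at 3 h, and had 1 count over the 4 libraries at 6 h against 94 at 0 h, a ratio of 0.0101 (exact 95% interval 0.000253 to 0.0576). It did not pass at 3 h (-0.87 ± 0.758) and fell at 6 h (adjusted p = 0.00139). Col25a1 stood at 2.77 to 3.24 CPM at 0 h and 1.16 to 1.59 CPM at both later times, and fell by 0.98 ± 0.171 and 0.95 ± 0.170. Col5a3 fell by 0.93 ± 0.237 and 1.19 ± 0.239, from 1.38 to 1.87 CPM at 0 h to 0.535 to 0.933 and 0.516 to 0.866 CPM. Col5a1 stood at 14.4, 16.0, 12.0 and 12.0 CPM at 0 h, at 10.6, 10.6, 9.03 and 8.25 CPM at 3 h and at 8.41, 7.90, 5.83 and 6.61 CPM at 6 h. It did not pass at 3 h (-0.25 ± 0.135) and fell by 0.76 ± 0.136 at 6 h.

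Col20a1 fell by 1.2 ± 0.229 at 3 h (4.66 to 9.08 CPM at 0 h against 2.18 to 2.54 CPM) and did not pass at 6 h (3.28 to 6.06 CPM, -0.32 ± 0.220). Col18a1 fell by 1.06 ± 0.410 and 1.14 ± 0.408 from 0.558 to 1.48 CPM at 0 h to 0.214 to 0.473 and 0.203 to 0.567 CPM. Col22a1, at 0.177 to 1.13 CPM at 0 h and at most 0.323 CPM later, did not pass the count filter. Col11a2 stood at 24.4, 20.7, 19.1 and 26.4 CPM at 0 h, at 16.8, 14.3, 9.42 and 13.9 CPM at 3 h and at 14.4, 25.4, 18.6 and 18.5 CPM at 6 h. It fell by 0.49 ± 0.177 at 3 h (adjusted p = 0.0302) and did not pass at 6 h (-0.07 ± 0.175). Col27a1 ranged over 8.63 to 10.3 CPM at 0 h, 4.92 to 7.51 CPM at 3 h and 6.61 to 7.69 CPM at 6 h. It fell by 0.37 ± 0.145 at 3 h (adjusted p = 0.0435) and did not pass at 6 h (-0.25 ± 0.144). Col4a3, at 0.930 to 1.68 CPM at 0 h, did not pass at either time (-0.05 ± 0.3 and -0.27 ± 0.301). The 3 h falls of Col11a2, Col18a1 and Col27a1 each failed to pass without some single libraries, down to -0.35, -0.70 and -0.27 (0 h replicates 1 and 4 and 3 h replicates 3 and 4 for Col11a2, 0 h 1 and 2 and 3 h 1, 2 and 4 for Col18a1, and 0 h 1, 3 and 4 and 3 h 2 and 4 for Col27a1). Without 3 h replicate 3 Col3a1 passed at 3 h (-2.20), and without 3 h replicate 1 Col4a1 did (-2.03). The 6 h fall of Col18a1 failed without 0 h replicate 1 (-0.79), 6 h replicate 1 (-0.91) or 6 h replicate 4 (-0.96).

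Between 3 h and 6 h, 2 members rose and 5 fell, where 40.8% of all genes were called (20.5% risen and 20.3% fallen). Col1a1 rose by 1.43 ± 0.127 (adjusted p = 7.07e-07) and Col20a1 by 0.88 ± 0.231. Col1a2 fell by a further 1.2 ± 0.378 (adjusted p = 0.0202), Col4a2 by 0.67 ± 0.184 and Col5a1 by 0.51 ± 0.137. Col3a1 and Col4a1 fell on few counts (adjusted p = 0.0119 and 0.0292). The others that passed the filter were Col15a1 at -0.54 ± 0.314, Col26a1 at -0.30 ± 0.186, Col5a3 at -0.26 ± 0.251, Col4a3 at -0.22 ± 0.305, Col18a1 at -0.08 ± 0.442, Col25a1 at 0.03 ± 0.177, Col27a1 at 0.12 ± 0.146, Col11a2 at 0.41 ± 0.177, Col9a3 at 0.55 ± 0.307 and Col9a2 at 0.93 ± 0.387. The fall of Col1a2 failed to pass without 3 h replicate 4 (-0.98) or 6 h replicate 1 (-1.02), that of Col3a1 without 3 h replicate 3 (-3.65), and that of Col4a1 without 3 h replicate 1 (-1.88) or 6 h replicates 2, 3 or 4 (-2.69, -3.30 and -2.97). Col11a2 passed as a rise without 3 h replicate 1 (0.55) or 6 h replicate 1 (0.56).

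The genes around collagen are set beside all genes tested, of which 54.4% were called at 3 h and 60.0% at 6 h, with a median log2 change of -0.06 at each. Of 14 tested modifying and folding genes, 3 rose and 4 fell at 3 h (50%, median -0.045), and 5 rose and 7 fell at 6 h against 0 h (85.7%, median -0.13). Colgalt1, which adds galactose to collagen, rose by 3.31 ± 0.160 at 3 h to 193 CPM and by 2.47 ± 0.156 at 6 h, and Tmem38b rose by 0.79 ± 0.0734 and 0.95 ± 0.0735. The proline hydroxylase gene P4ha1 rose by 1.98 ± 0.135 at 6 h, and the proline hydroxylase gene P3h2 fell by 5.14 ± 0.531 at 3 h. Plod3 fell by 0.51 ± 0.0659 at 3 h, and P4hb by 0.80 ± 0.0590 at 6 h. Crtap fell by 1.69 ± 0.379 between 3 h and 6 h. Of 5 tested genes of propeptide removal and cross-linking, 40% were called at 3 h and 20% at 6 h, at medians of -0.97 and -0.10. At 3 h 0 rose and 2 fell at 3 h, namely Pcolce by 0.97 ± 0.167 and Tll1 by 0.98 ± 0.377, and 1 fell at 6 h, namely Tll1 by 1.13 ± 0.378. Adamts2 did not pass (-0.99 ± 0.508 at 3 h and -0.08 ± 0.478 at 6 h), nor did Loxl2 (0.18 ± 0.194 and -0.21 ± 0.195). All 3 tested fibril-associated genes fell at both times: Sparc by 2.88 ± 0.502 and 4.38 ± 0.580, Dcn by 3.33 ± 0.650 and 5.03 ± 0.788, and Fn1 by 2.00 ± 0.458 and 3.54 ± 0.507.

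Of 8 tested degradation genes, 1 rose and 3 fell at each time against 0 h (50%, below the share of all genes, with medians of -0.49 and -0.12). The neutrophil collagenase gene Mmp8 fell by 0.74 ± 0.0573 at 3 h to 3004 CPM and by 0.70 ± 0.0573 at 6 h, and the gelatinase gene Mmp9 fell by 0.21 ± 0.0413 and 0.24 ± 0.0413. Timp3, an inhibitor of these enzymes, fell by 2.49 ± 0.624 and 2.44 ± 0.614, and Mmp2 rose by 0.85 ± 0.204 and 0.86 ± 0.204. Mmp13 and Mmp14 rose between 3 h and 6 h by 0.91 ± 0.272 and 0.58 ± 0.193. Of 6 tested receptors, 2 rose at 3 h (33.3%, median 0.040) and 3 at 6 h (50%, median 0.72), and 0 fell, so that the called share was below that of all genes at both times. The integrin chain gene Itgb1 rose by 1.61 ± 0.0855 and 2.18 ± 0.0863, and the inhibitory receptor gene Lair1 by 0.55 ± 0.133 and 1.10 ± 0.132. Gp6, the platelet collagen receptor, was at -0.48 ± 0.426 at 3 h and rose by 1.12 ± 0.391 at 6 h, and Itga1 did not pass (0.28 ± 0.305 and -0.44 ± 0.313).

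Of 9 tested genes of TGF-beta signalling, a pathway known to raise type I collagen in fibroblasts, 5 rose and 2 fell at 3 h (77.8%, median 0.28), and 6 rose and 3 fell at 6 h (100%, median 0.22), where 54.4% and 60.0% of all genes were called and 26.9% and 29.6% rose. Tgfb1 rose by 1.63 ± 0.0745 and 1.26 ± 0.0739, Tgfbr1 by 2.11 ± 0.0818 and 1.28 ± 0.0802, and the feedback genes Skil and Smad7 by 2.54 ± 0.0896 and 1.69 ± 0.103 at 3 h. Tgfbr2 fell by 1.52 ± 0.0819 at 6 h. Between 3 h and 6 h, 1 of the 9 rose, Smad2 by 0.64 ± 0.0658, and 6 fell.

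The IVIG comparisons asked whether collagen genes differed between treatments within each labelled tissue. No gene passed in any of the 4 (edgeR, 0% of genes called in each). At an unadjusted p under 0.05 there were 157 of 16171 genes in skin, 81 of 11339 in blood, 73 of 14033 in neutrophils and 286 of 14415 in monocytes, and DESeq2 called 1, 1, 0 and 3 genes, none of them a collagen. Each comparison holds libraries of another marker class than its label. In TMM-scaled CPM, IVIG and PBS libraries did not overlap for 3.96% of all genes in skin, 0.0617% in blood, 0.0926% in neutrophils and 1.61% in monocytes.

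In skin, 3 libraries against 3 with 1 blood-class library in each group, 35 members passed the filter. None was called, 1 had an unadjusted p under 0.05, and in TMM-scaled CPM the groups did not overlap for 1, Col26a1. Col26a1 had 80, 60 and 5 counts in skin IVIG 1, 2 and 3 and 0, 4 and 67 in skin PBS 1, 2 and 3. In CPM without TMM scaling its groups overlapped, so the separation rests on the scaling of the blood-class library skin IVIG 3. Their median log2 change, IVIG over PBS, was 0.53, beside 0.00 over all genes. Because each group spans skin and blood, errors were wide: Col1a1 was at 1.16 ± 2.60, Col1a2 at 1.09 ± 2.48, Col3a1 at 0.88 ± 2.71, Col5a1 at 0.57 ± 2.09, Col5a2 at 0.53 ± 2.05 and Col5a3 at -0.01 ± 1.70. Col11a1 was highest at 2.89 ± 1.07 (adjusted p = 1), with Col11a2 at 0.82 ± 2.10, Col27a1 at 0.15 ± 0.499 and Col24a1 at -0.02 ± 0.982. Basement membrane members were Col4a1 at 0.40 ± 1.96, Col4a2 at 0.34 ± 2.02, Col4a3 at 1.15 ± 0.601, Col4a4 at 0.54 ± 1.30, Col4a5 at 0.49 ± 1.02, Col4a6 at -0.12 ± 0.895, Col15a1 at 1.01 ± 1.68 and Col18a1 at 0.06 ± 1.11. FACIT members were Col12a1 at 1.07 ± 1.30, Col14a1 at -0.43 ± 1.79, Col16a1 at 1.42 ± 1.71, Col20a1 at 0.65 ± 1.10 and Col9a3 at -0.01 ± 0.751. Of the others, Col6a5 was lowest at -3.00 ± 1.38, with Col6a1 at 0.59 ± 1.99, Col6a2 at 0.87 ± 2.06, Col6a3 at 1.04 ± 1.94, Col6a4 at 0.10 ± 0.726 and Col6a6 at -0.64 ± 1.31. Col8a1 was at -0.10 ± 1.14, Col8a2 at 0.38 ± 1.07, Col13a1 at 0.12 ± 0.658, Col23a1 at 0.65 ± 1.14, Col26a1 at 1.69 ± 1.13 and Col28a1 at 0.43 ± 0.999. Leaving out 1 library moved Col1a1 between 0.37 (without skin IVIG 2) and 1.74 (without skin IVIG 3), and Col15a1 between 0.46 (without skin PBS 1) and 1.57 (without skin IVIG 3). Col6a5 moved to -5.01 without skin IVIG 1.

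With only the 4 skin libraries whose markers match the label (2 against 2), the errors narrowed and still no member passed. Of the 35 tested, 13 (37.1%) had an unadjusted p under 0.05, beside 8.54% of the 16934 genes tested. Col11a1 was at 3.20 ± 0.542 (adjusted p = 0.220), Col15a1 at 1.06 ± 0.216 (adjusted p = 0.251), Col6a2 at 0.90 ± 0.229, Col1a1 at 1.18 ± 0.402 (adjusted p = 0.493), Col1a2 at 1.12 ± 0.400, Col3a1 at 0.91 ± 0.360 and Col6a5 at -3.04 ± 0.828 (adjusted p = 0.367). The genes called in this fit were the hair follicle genes Krt25, Krt28, Krt71 and Tchh, all higher in the IVIG libraries, named after their values were seen. The 2 IVIG libraries of this fit are the 2 with hair follicle genes, so the 2 differences cannot be told apart.

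In blood, 7 members passed the filter. Col26a1 was at -1.06 ± 1.02, Col27a1 at -0.50 ± 0.471, Col11a2 at 0.00 ± 0.913, Col20a1 at 0.24 ± 0.842, Col9a3 at 0.39 ± 0.575, Col18a1 at 0.59 ± 1.17 and Col23a1 at 0.86 ± 1.07. With the libraries of matching markers alone, 5 members were tested and the lowest adjusted p was 0.790.

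In neutrophils, 18 members passed the filter, and the median log2 change was 0.17 beside -0.02 over all genes. Col1a1 was at 0.25 ± 0.954, Col1a2 at 0.33 ± 0.911, Col5a1 at -0.23 ± 0.517, Col5a2 at 0.74 ± 0.538, Col5a3 at -0.19 ± 0.488, Col11a1 at 0.69 ± 0.483, Col11a2 at 0.09 ± 0.258, Col27a1 at 0.27 ± 0.358 and Col2a1 at 0.39 ± 0.569. Col4a2 was at 0.22 ± 0.681, Col4a3 at 0.11 ± 0.571, Col4a6 at -0.48 ± 0.636, Col18a1 at -0.43 ± 0.683, Col9a3 at -0.07 ± 0.455, Col20a1 at -0.06 ± 0.310, Col22a1 at 0.01 ± 0.748, Col25a1 at 0.99 ± 0.786 and Col26a1 at 0.64 ± 0.704. The 8 libraries of matching markers gave Col1a1 at 0.24 ± 0.492 and Col11a2 at 0.04 ± 0.210, and none of 19 members had an unadjusted p under 0.05.

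In monocytes, 16 members passed the filter, and the median log2 change was -0.19 beside -0.07 over all genes. Col4a2 had 0, 0 and 3 counts in the IVIG libraries and 29, 130, 0, 16 and 0 in the PBS libraries, and the fitted change of -5.54 ± 2.54 rests on these few counts. It moved to -8.19 without monocyte IVIG 3, and Col4a2 did not pass the filter among the marker-matched libraries or without monocyte PBS 1, 2 or 4. Of the 16, Col11a2 had an unadjusted p under 0.05 (-1.74 ± 0.734), and stood at -0.98 without monocyte PBS 3. Col1a1 moved to -1.86 without monocyte IVIG 2 and to -0.52 without monocyte IVIG 3. Col6a1 was at -2.24 ± 1.97, Col18a1 at -1.41 ± 2.02, Col1a1 at -0.90 ± 0.646, Col20a1 at -0.62 ± 1.70, Col1a2 at -0.33 ± 0.878, Col26a1 at -0.31 ± 1.44, Col9a3 at -0.08 ± 1.84 and Col5a1 at -0.03 ± 1.76. Col2a1 was at 0.43 ± 1.68, Col27a1 at 0.57 ± 1.24, Col5a3 at 0.93 ± 1.64, Col25a1 at 1.18 ± 1.51, Col4a1 at 1.53 ± 1.64 and Col4a3 at 1.87 ± 1.14. Without monocyte PBS 1, whose markers are those of the neutrophil class, Col11a2 was at -1.90 ± 0.769 and Col4a3 at 2.83 ± 1.19, and neither passed.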

How the data were processed

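The authors deposited estimated counts (expected counts, length-scaled TPM by the table's name) for 46264 gene symbols in 46 libraries. Kallisto 0.46.1 and the GRCm38 build appear in the submitters' processing notes. Other steps are not given in the sources used here. Values were rounded to whole numbers, and 0 columns were left unmapped. The treatment field contradicts the condition field and was not used. Groups come from the tissue and condition fields. Replicates outside Ics were numbered in accession order.

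Tests used edgeR 4.0.16 (TMM scaling, default filter with a minimum count of 10, quasi-likelihood F test) in R 4.3.3, adjusted over all genes tested. The procedure was tested on simulated counts. DESeq2 1.42.0, RLE scaling, no filter, a replicate block, a title series covariate, marker-matched subsets and leaving out each library were alternatives. The collagen members, their classes and the lists were chosen with earlier results of these data known. Every member with a skin-class median of at least 10 CPM is given in all 6 libraries, other members by range, and of each list up to 4 genes by median in skin or by smallest p in the Ics comparisons. List genes in the IVIG comparisons, where none was called, are not printed. Gene positions and exons are from GENCODE vM21 on GRCm38, which held all 42 members, and promoter sequences are from RefSeq on GRCm38.p6.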

Additional observations from a re-analysis of the deposited data

Results flagged for a closer look

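In 4 of 59 groups of libraries checked (each tested Ics member at each time, and the summed collagen level of each labelled group of 4 or 5), 1 library lay far from the rest, where chance alone would give about 5% of groups. The library labelled blood IVIG 3 held 24117 CPM of collagen against 3.20 to 193 CPM in the other 4 of its group, and that labelled blood PBS 2 held 18408 CPM against 4.04 to 101 CPM. Both carry the keratins of the skin class. The library labelled monocyte PBS 4 held 191 CPM against 80.1 to 109 CPM. For Col3a1 at 6 h in the Ics experiment, replicate 4 held 0.0361 CPM, which is 1 count, and the other 3 were at 0.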

How the results depend on the processing

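No collagen gene was called in any IVIG comparison under any alternative run. Counts of all genes called there moved from 0 to 1 in skin, 1 in blood and 3 in monocytes with DESeq2, and to 4 in skin and 5 in blood with the libraries of matching markers alone, where fewer samples were fitted. In the Ics experiment the counts of members called stayed within 1.5 times under each alternative and each left-out library. The title numbers of the Ics libraries were to count as pairs if deviations of every same-numbered pair correlated over 0.1. They ranged from 0.0412 to 0.174, with 7 of 12 over 0.1, and all lay above the 36 differently numbered pairs (-0.0931 to 0.0147), a hint from the data that the numbers carry something in common. With the replicate block 8297, 9151 and 6354 genes were called at 3 h, at 6 h and between them, Col18a1 no longer passed at 3 h (-1.02) and Col5a1 did (-0.25). Col18a1 also failed at 3 h with DESeq2 (-1.04) and without the filter (-1.05), and Col27a1 with RLE scaling (-0.35) and without the filter (-0.36), and Col11a2 passed as a rise between 3 h and 6 h with DESeq2 (0.42). In the IVIG comparisons signs were followed for Col1a1, Col6a5, Col11a1 and Col15a1 in skin. Elsewhere they were followed for Col1a1, Col11a2 and Col4a2 where tested, and in the Ics experiment for every tested member. Among these, signs changed on leaving out single libraries only for members that had not passed: at 3 h Col4a3 (-0.17 to 0.13) and Col9a3 (-0.27 to 0.14), at 6 h Col11a2 (-0.20 to 0.070), between 3 h and 6 h Col18a1 (-0.36 to 0.14) and Col25a1 (-0.048 to 0.16), in blood Col11a2 (-0.52 to 0.31), and in neutrophils Col11a2 (-0.012 to 0.24), Col1a1 (-0.044 to 0.69) and Col4a2 (-0.15 to 0.60). Of members not followed, Col20a1, Col9a3 and Col5a1 changed sign without monocyte PBS 1, to 0.35, 0.28 and 0.25. With matching markers alone, blood Col11a2 was at 0.064, and skin Col11a2, among others, changed sign, to -0.94. In the marker-matched neutrophil libraries Col18a1, Col9a3 and Col22a1 changed sign, to 0.065, 0.016 and -0.025. The median blood-class collagen level moved from 3.62 to 61.8 CPM without haemoglobin genes in the total. Medians of the skin class moved by less than their SD with TMM factors, per kilobase, with only skin-labelled libraries, with Col15a1 and Col18a1 counted as other and without each library. Depth limits the low members: 1 count is about 0.03 CPM in most libraries.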
